A study of Mus musculus with 12 samples.

Results

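The histone cluster genes described here are every row of the gene table whose name starts with Hist1h, Hist2h, Hist3h or Hist4h, the older mouse names of the replication histone genes. These were 68 of 23358 rows. By the type in the name, 6 are of the linker histone H1, 18 of H2A, 19 of H2B, 12 of H3 and 13 of H4. Of the H2B rows 1, Hist3h2bb-ps, is a pseudogene by its name, and it is kept in the counts and shares. The Hist1 cluster on chromosome 13 holds 54 of them, the Hist2 cluster on chromosome 3 holds 10, 3 are Hist3 genes on chromosome 11 and 1 is the Hist4 gene on chromosome 6.

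The RNA came from MC3T3 sc4, a subclone of an osteoblast precursor line from mouse calvaria (labelled strain C57BL/6), at passage 12. The cells of all 12 libraries were in osteogenic medium with ascorbic acid and β-glycerol phosphate. They received vehicle, BMP2 (a bone morphogenetic protein) at 10 or 50 ng/ml, 5 µM GSK126 or GSK126 with either BMP2 dose. GSK126 is an inhibitor of the Polycomb methyltransferase Ezh2. RNA was taken on day 1 or day 6 of treatment, with 1 library for each of the 12 conditions. A condition therefore has no replicate: the fits take the libraries that share a treatment or a day as replicates of it, and each p-value reflects nothing but the spread among these libraries, since the labels do not state that they came from separate cultures.

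Replication histone genes supply the histones that package new DNA, and their mRNAs accumulate in S phase and are degraded when DNA synthesis stops. Most of these mRNAs have no introns and no poly(A) tail: they end in a short hairpin, the histone stem-loop, which is bound by the protein Slbp and is followed by the cut that forms the 3′ end. Some of the genes also make longer, polyadenylated transcripts, which have been described in cells that stop dividing and differentiate. The labels name an Illumina mRNA kit, so how far transcripts without a poly(A) tail entered these libraries was not tested.

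The stem-loop is shown first, because the histone transcripts can be sorted by where it lies. A script searched the GENCODE transcript of each gene (GRCm38) for a stem of 6 bases that starts with GG and ends with T, a loop of 4 bases that starts with TT, and the exact complement of the stem. It was present in 43 of the 68 genes, against 46 of 58725 protein-coding transcripts of other genes (0.0783%). Below, 1 gene stands for each of the 6 versions found, with 5 bases on either side and the stem in capitals, 5′ to 3′ on the gene's strand.
Hist1h1c: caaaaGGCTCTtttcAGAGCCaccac
Hist1h3c: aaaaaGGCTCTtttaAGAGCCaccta
Hist2h2ac: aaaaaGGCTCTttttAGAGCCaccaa
Hist1h4d: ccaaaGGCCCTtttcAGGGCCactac
Hist1h4i: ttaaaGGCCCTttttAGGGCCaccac
Hist1h4b: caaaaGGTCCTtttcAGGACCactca
These lie at chr13:23739507-23739532, chr13:23745042-23745067, chr3:96220413-96220438, chr13:23581945-23581970, chr13:22040961-22040986 and chr13:23757361-23757386. The Hist1h1c version occurred in 25 genes of types H1, H2A, H2B and H3, the Hist1h3c version in 6 genes and the Hist2h2ac version in 1. The versions of Hist1h4d, Hist1h4i and Hist1h4b occurred in 7, 2 and 2 genes, all of type H4, so the stem of every H4 gene in which one was found differed from that of the other types.

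By the annotated transcript, 21 genes ended within 100 bases after the stem-loop (Hist1h4b, for example, 28 bases after it), and 22 ran further. Among the latter, the Hist1h1c transcript went on for 840 bases, that of Hist1h4i for 330 and that of Hist3h2a for 1643. No stem-loop of this form was found in the other 25 transcripts, of which 13 carry no 3′ UTR in the annotation and so could not have shown one.

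Few of the histone genes were detected. With the threshold of detection at 1 CPM (counts scaled to 1e+06 counts of the library) in at least 2 libraries, 7 of 68 genes passed (10.3%, exact binomial 95% interval 4.24 to 20.1%), against 12056 of all 23358 rows (51.6%). They were Hist1h1c and Hist1h1e of 6 H1 genes, Hist3h2a of 18 H2A genes, Hist1h2bc and Hist2h2be of 19 H2B genes, Hist2h3c1 of 12 H3 genes and Hist1h4i of 13 H4 genes. At 0.1 CPM in at least 2 libraries the share was 28 of 68 (41.2%, against 64.9% of all rows), and at 5 CPM it was 3 of 68. At least 1 read pair was found for 61 genes (89.7%, against 81.5% of all rows), and 20 had counts in all 12 libraries. The median of mean RPKM (reads scaled by the gene's length and the library's total, so that levels of different genes can be compared) was 0.066 for the histone genes and 0.403 for all rows.

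By annotated end, none of the 21 genes that ended near the stem-loop reached 1 CPM in 2 libraries, 5 of the 22 that ran past it did, and so did 2 of the 25 without a stem-loop found, Hist2h2be and Hist1h2bc. At 0.1 CPM the counts were 7 of 21, 15 of 22 and 6 of 25. Median mean RPKM was 0.0645, 0.131 and 0.0274 for the same classes. Sequence shared between genes moved with the class: of all windows of 50 bases in a transcript, the share found at no other annotated locus had a median of 39.6% in genes that ended near the stem-loop, 80.8% in those that ran past it and 45.9% in the rest. CPM is also not scaled by gene length: the counted row of Hist1h4b has 312 bases and that of Hist1h1c 1561, although Hist1h4i passed with 537. The class is that of the annotated transcript, and a counted row can stop short of the stem-loop. That of Hist1h4d ends at chr13:23581913, and its stem-loop lies at 23581945-23581970. The part of shared sequence, length and row ends in the detected shares was not tested.

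**Figure D1:**
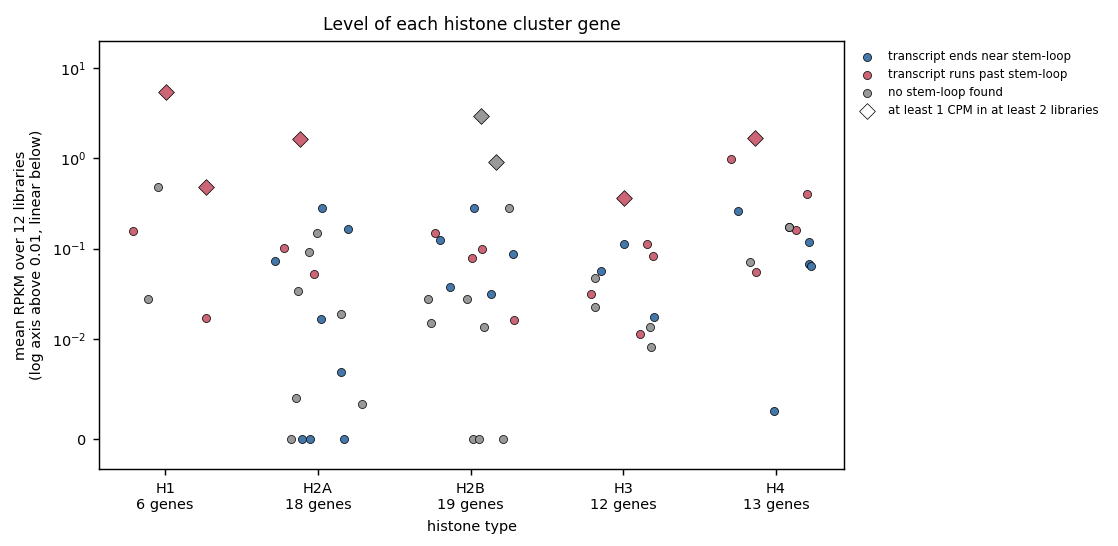
Mean deposited RPKM over the 12 libraries (vertical axis, logarithmic above 0.01 and linear below) for each of the 68 genes, by histone type. Colour gives where the annotated transcript ends, and the 7 diamonds are the genes that passed the detection threshold. No gene that ended near the stem-loop (blue) is a diamond, and 7 genes lie at 0.

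Within H1, mean RPKM was highest for Hist1h1c (5.36; RefSeq symbol H1f2), then Hist1h1e (0.487; H1f4) and Hist1h1b (0.477). The ranges of Hist1h1e and Hist1h1b over the libraries overlapped, at 0.329 to 0.768 and 0.180 to 0.870. Hist1h1c lay above both in every library, at 2.29 to 15.2. Hist1h1t, the testis form of H1, had no read pair on day 1 and 11 in all on day 6.

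Among H2A genes Hist3h2a led at a mean RPKM of 1.63, followed by Hist2h2ac (0.279) and Hist2h2aa1 (0.164). Among H2B genes the order was Hist1h2bc (2.92), Hist2h2be (0.915) and Hist1h2bj (0.285). The H3 genes were lowest as a type by their leading member: Hist2h3c1 had 0.361, Hist1h3c 0.112 and Hist2h3c2 0.111. Of the H4 genes, Hist1h4i had 1.69, Hist2h4 0.985 and Hist1h4d 0.401.

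The 7 genes at 0 in all 12 libraries were Hist2h2aa2, Hist1h2aa, Hist1h2ao, Hist1h2ap, Hist1h2ba, Hist1h2bq and Hist1h2br. A count of 0 is taken to allow up to 3 read pairs, which is 0.0527 to 0.0808 CPM depending on the library (counting error only). This is a set floor and not the upper end of an exact 95% interval. Of these genes, 5 share their position with another histone row, as Hist2h2aa2 does with Hist2h2aa1, and how reads that fit both rows were counted is not stated. Hist1h2aa and Hist1h2ba share no position, and are the testis-specific H2A and H2B genes. Male germ cell markers were likewise low, with a summed level of their 5 genes of 0.646 to 1.65 CPM over the 12 libraries, most of it Sycp3.

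Library totals ran from 74301112 to 113744802 counts. All counts were even, so 2 counts are taken here as 1 read pair. Rn45s, the ribosomal RNA precursor, took 8.96 to 11.7% of the counts on day 1 and 13.1 to 21.7% on day 6, and that share is part of the total by which every CPM is divided. The osteoblast markers were present throughout, with a summed level of 7 genes (Runx2, Sp7, Alpl and Col1a1 among them) of 20181 to 24575 CPM on day 1 and 29407 to 72918 on day 6. The 4 endothelial markers summed to at most 0.301 CPM. The 6 leukocyte markers summed to 2.85 to 3.67 CPM on day 1 and 5.37 to 13.4 on day 6, of which Lyz2 made 3.32 to 12.4 on day 6, while the defining leukocyte gene Ptprc was at 0.0754 CPM or below. The part of other cells in the histone values was not tested.

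Promoters of 3 tested genes follow, to set the strongest rise with time (Hist1h1c) and the detected H2A gene (Hist3h2a) beside the gene that fell (Hist1h4i). They are RefSeq windows of 250 bases before to 50 after the start (GRCm38.p6), 5′ to 3′ on the gene's strand, with matches on either strand in capitals: CCAAT (bound by the factor NF-Y), TATAAA (one form of the element bound by the TATA-binding protein), GGGCGG (bound by Sp1) and the octamer ATTTGCAT (bound by Oct1), each counted whether or not it overlaps another.
Hist1h1c: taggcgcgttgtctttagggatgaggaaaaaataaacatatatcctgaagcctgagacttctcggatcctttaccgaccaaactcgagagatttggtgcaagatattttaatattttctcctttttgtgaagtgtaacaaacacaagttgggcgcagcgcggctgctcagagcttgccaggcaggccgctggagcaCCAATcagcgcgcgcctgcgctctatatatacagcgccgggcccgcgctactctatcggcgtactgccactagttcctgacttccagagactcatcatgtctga
Hist3h2a: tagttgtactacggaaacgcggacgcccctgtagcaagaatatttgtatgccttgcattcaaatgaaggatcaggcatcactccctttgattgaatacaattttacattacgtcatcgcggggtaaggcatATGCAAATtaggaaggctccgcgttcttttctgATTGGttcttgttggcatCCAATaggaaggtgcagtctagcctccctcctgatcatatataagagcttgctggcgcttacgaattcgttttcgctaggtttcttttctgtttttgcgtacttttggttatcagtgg
Hist1h4i: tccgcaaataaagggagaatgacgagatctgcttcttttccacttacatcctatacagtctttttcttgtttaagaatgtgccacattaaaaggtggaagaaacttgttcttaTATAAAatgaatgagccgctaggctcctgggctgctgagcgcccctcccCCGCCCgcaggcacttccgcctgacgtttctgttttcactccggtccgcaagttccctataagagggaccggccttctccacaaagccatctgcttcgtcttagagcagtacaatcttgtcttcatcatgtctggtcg
These windows are chr13:23738557-23738856, chr11:58954435-58954734 and chr13:22041313-22041612. Of 62 windows for 61 histone genes, 85.5% held CCAAT, against 37.4% of all 32851 RefSeq promoter windows. All H1, H2A, H2B and H3 windows held it, and 3 of 12 H4 windows did. TATAAA was found in 56.5% (against 13.6%) and GGGCGG in 38.7% (against 35.7%). ATTTGCAT was found in 22.6% (against 1.74%): in 7 of 17 H2A and 7 of 17 H2B windows and in no H1, H3 or H4 window. Some H2A and H2B windows overlap on opposite strands, so a single site can count for both types. The windows of Hist1h2aa and Hist1h2ba, of Hist1h2ae and Hist1h2bg, and of Hist1h2ah and Hist1h2bk share their octamer in this way. A match is a string of letters and not a measured binding site.

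From day 1 to day 6, 5 of the 7 tested histone genes rose and 1 fell. The linker histone Hist1h1c rose most, 3.51-fold, and the H4 gene Hist1h4i fell. Of all 12056 genes tested, 40.5% were called higher and 37.5% lower on day 6, so a call by itself is common in this comparison. With library size scaling in place of TMM these shares were 25.5% and 51.7%, and with each treatment matched across the days (a block by treatment) 35.1% and 33.0%; either way the same number of histone genes, 5 higher and 1 lower, was called. The median log2 fold change was 0.96 over the 7 genes and 0.03 over all genes; Hist2h3c1 reached 1 CPM only in libraries of day 6 and Hist1h4i only in libraries of day 1, so these 2 were tested because of the day on which they were high. In RNA from whole cultures, fewer cells with a transcript and less transcript per cell cannot be told apart.

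On day 1, Hist1h1c had 5.03 CPM with vehicle, 4.47 and 5.17 with BMP2 at 10 and 50 ng/ml, 4.84 with GSK126, and 4.99 and 4.76 with GSK126 and BMP2 at 10 and 50 ng/ml. On day 6 it had, in the same order, 8.34, 11.1, 16.7, 11.5, 19.9 and 29.6 CPM. Every library of day 6 lay above every library of day 1. The log2 fold change was 1.81 ± 0.06 (SE; edgeR quasi-likelihood test over all genes, adjusted p = 4.72e-07), and Hist1h1c was higher on day 6 in 6 of 6 treatments.

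The H2B gene Hist1h2bc had 1.64, 1.11, 1.46, 1.56, 1.46 and 1.23 CPM on day 1 and 2.30, 3.09, 5.02, 4.12, 3.83 and 5.32 CPM on day 6, in the same order of treatments. The days did not overlap. Its log2 fold change was 1.65 ± 0.15 (adjusted p = 4.27e-05). Hist2h2be, the other detected H2B gene, had 1.85 to 2.93 CPM (median 2.12) on day 1 and 2.97 to 4.74 (median 3.76) on day 6, again without overlap, with a log2 fold change of 0.96 ± 0.09 (adjusted p = 5.50e-05).

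Hist2h3c1, an H3 gene, had 0.673, 0.278, 0.250, 0.528, 0.545 and 0.344 CPM on day 1 and 0.867, 0.815, 1.33, 0.829, 1.58 and 1.92 CPM on day 6. This came from 12 to 31 read pairs a library on day 1 and 33 to 91 on day 6, and the days did not overlap. The log2 fold change was 1.69 ± 0.21 (adjusted p = 2.54e-04). Hist3h2a, the H2A gene, had 2.67 to 4.03 CPM (median 3.39) on day 1 and 3.90 to 5.28 (median 4.97) on day 6. It was higher in 6 of 6 treatments although the days overlapped, with a log2 fold change of 0.74 ± 0.06 (adjusted p = 3.35e-05).

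Hist1h4i went the other way. Its levels were 1.32, 1.67, 1.27, 1.85, 1.56 and 1.32 CPM on day 1 and 0.845, 0.963, 0.625, 0.764, 0.943 and 0.506 CPM on day 6. All 6 libraries of day 6 lay below all 6 of day 1, and the log2 fold change was -0.77 ± 0.13 (adjusted p = 0.00114). Hist1h1e had 0.949 to 1.91 CPM (median 1.21) on day 1 and 0.825 to 1.38 (median 0.987) on day 6, was lower in 5 of 6 treatments, and did not pass the test (-0.07 ± 0.15, adjusted p = 0.678). Its row overlaps that of Hist1h2be, and how reads that fit both were counted is not stated.

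**Figure D2:**
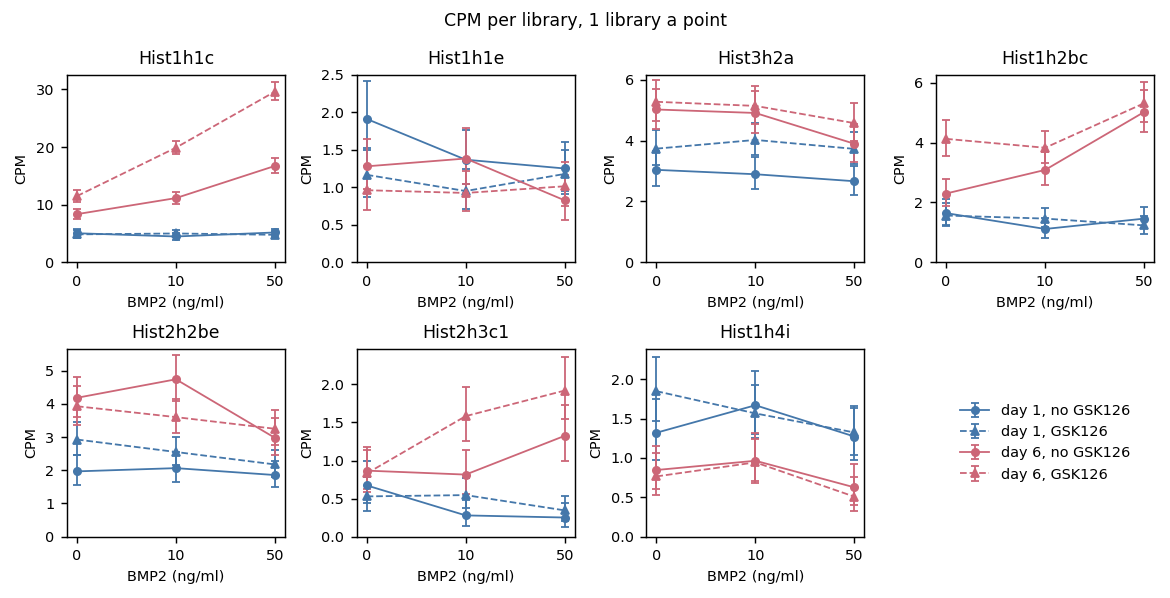
CPM of the 7 tested histone genes in each library (1 library a point) against the BMP2 dose in ng/ml, drawn at even spacing, with exact Poisson 95% intervals on read pairs, which cover counting error only. Blue is day 1, red is day 6, and broken lines with triangles are GSK126. Hist1h1c reaches 29.6 CPM on day 6 with GSK126 and BMP2 at 50 ng/ml and stays at or below 5.17 CPM on day 1.

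The sums by type are given without a test, in CPM of library totals and not on the TMM scale of the fold changes. For the day, library size scaling moved the median log2 fold change of all genes by -0.21 against TMM. Over all 68 genes the summed level was 18.6 to 22.7 CPM on day 1 and 28.0 to 50.1 on day 6, a ratio of the means of 1.78, and without Hist1h1c the ratio was 1.29. H1 genes together had 6.72 to 8.59 CPM on day 1 and 10.8 to 31.3 on day 6, H2B genes 3.90 to 5.41 and 7.35 to 9.54, and H2A genes 3.52 to 4.69 and 4.82 to 6.11. H3 genes had 0.603 to 1.35 and 0.988 to 2.30 CPM, which overlap. H4 genes had lower sums on day 6: 2.96 to 3.98 CPM on day 1 and 1.33 to 2.97 on day 6, with the day 6 vehicle library at the level of the lowest libraries of day 1. The 61 genes that were not tested summed to 4.69 to 7.11 CPM on day 1 and 3.27 to 5.27 on day 6. Hist1h1c alone made 22.2 to 27.8% of all histone counts on day 1 and 29.8 to 59.1% on day 6.

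**Figure D3:**
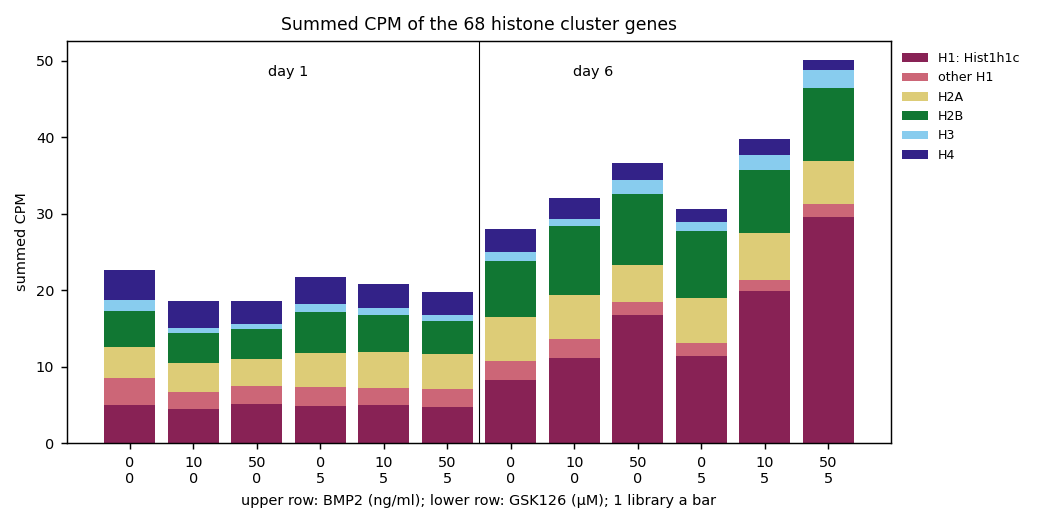
Summed CPM of the 68 histone cluster genes in each of the 12 libraries (1 bar a library), split by type, with Hist1h1c apart from the other H1 genes. Bars of day 1 reach 18.6 to 22.7 CPM and bars of day 6 reach 28.0 to 50.1, and the Hist1h1c segment grows from at most 5.17 CPM to as much as 29.6.

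Below the detection threshold the counts are small, and the fit was run again over every gene with a count, 61 of the histone genes among 19026. Day 6 was then called higher in 10 and lower in 6 of the 61, and 45 did not pass. Over all genes of that fit, 27.4% were called higher and 26.1% lower. The median log2 fold change was -0.44 over the 61 and 0.04 over all genes. By type, the higher calls were 2 H1, 2 H2A, 4 H2B and 2 H3 genes, and the lower calls were 1 H1, 1 H2B, 1 H3 and 3 H4 genes. Of the 18 genes with counts whose transcript ends near the stem-loop, 1 was higher and 3 were lower, and of the 22 that run past it, 7 were higher and 2 were lower. Whether these classes differ was not tested.

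Among the low genes called higher, Hist1h2bg had 4, 1, 0, 2, 1 and 0 read pairs on day 1 and 5, 7, 11, 10, 13 and 9 on day 6. Hist2h2aa1 had 4 to 11 pairs on day 1 and 10 to 25 on day 6, with a log2 fold change of 1.46 ± 0.30 (adjusted p = 0.00251), and its values include reads that could fit Hist2h2aa2. Hist1h2be rose by 1.64 ± 0.38 and Hist2h3c2 by 1.59 ± 0.50 on the log2 scale (adjusted p = 0.00506 and 0.0248). Hist1h1t was called too (adjusted p = 0.0374), on 0 read pairs in each library of day 1 and 0 to 3 on day 6. In a single library that is no more than the 3 pairs that a count of 0 allows. Over all libraries of day 6 it had 11 pairs, in 5 libraries, and no fold is given.

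Among those called lower, Hist1h2bj had 9, 6, 11, 5, 19 and 17 read pairs on day 1 and 1, 6, 3, 1, 0 and 0 on day 6. The H3 gene Hist1h3c had 2 to 9 pairs on day 1 and 0 to 2 on day 6. The H4 genes Hist1h4b and Hist1h4d had 4 to 12 and 5 to 17 pairs on day 1 and 0 to 4 and 0 to 8 on day 6. The H1 gene Hist1h1b, at 18 to 35 pairs on day 1 and 8 to 19 on day 6, fell by 0.86 on the log2 scale (SE 0.23, adjusted p = 0.0121). These genes are low on both days, and the first 4 rest on fewer than 20 pairs in any library.

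**Figure D4:**
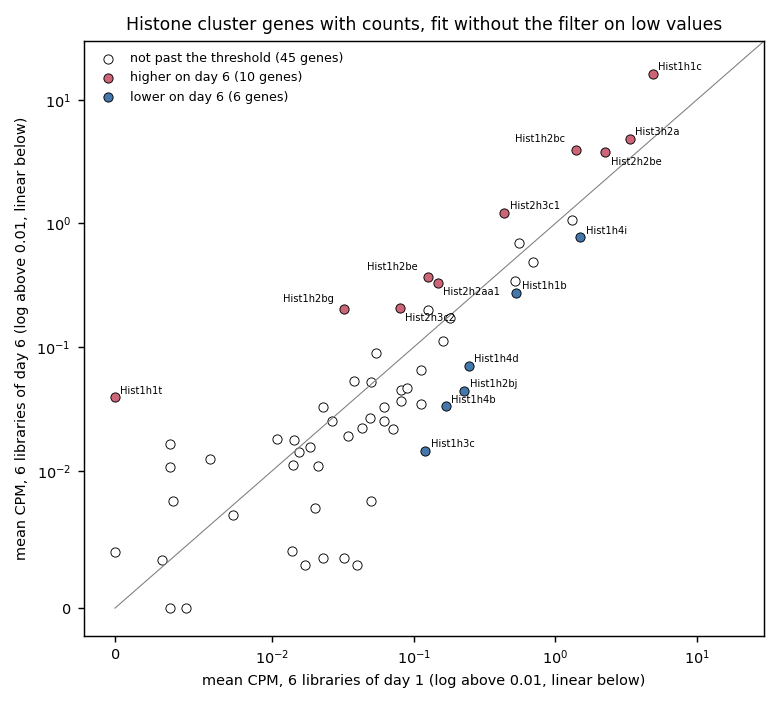
Mean CPM of the 6 libraries of day 1 (horizontal) and of day 6 (vertical) for the 61 histone genes with counts, logarithmic above 0.01 and linear below, with the line of equal levels. Red genes (10) were called higher and blue genes (6) lower on day 6 in the fit without the filter, and open circles (45) were not called.

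GSK126 on day 6 raised 1 of the 7 tested histone genes, Hist1h1c, and lowered none. Of all genes tested, 14.3% were called higher and 14.0% lower (15.3% and 9.8% with library size scaling, and 8.1% in either direction in the fit of day 6 alone). The count of 1 of 7 is near the share of all genes called higher. At 0, 10 and 50 ng/ml of BMP2 the Hist1h1c level went from 8.34 to 11.5, from 11.1 to 19.9 and from 16.7 to 29.6 CPM, which is 1.38, 1.79 and 1.77 times as much with GSK126. The libraries with and without GSK126 overlap, since BMP2 also changed the level, but at each BMP2 dose the library with GSK126 was higher. The log2 fold change was 0.67 ± 0.08 (edgeR, adjusted p = 0.00192). Hist1h2bc was higher in 3 of 3 matched pairs without passing the test (0.36 ± 0.20, adjusted p = 0.212), and Hist2h3c1 was higher in 2 of 3 (0.44 ± 0.28, adjusted p = 0.272). The median over the 7 genes was 0.08 and over all genes 0.00.

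In the fit over every gene with a count, 3 of the 61 histone genes were called lower with GSK126 on day 6, all of them below the threshold. Of all genes in that fit, 8.06% were called in that direction, so the count of 3 of 61 is under the share of all genes. The single Hist4 gene, Hist4h4, had 48, 34 and 38 read pairs without GSK126 and 26, 15 and 22 with it, so the groups did not overlap (log2 fold change -1.18 ± 0.23, adjusted p = 0.0104). Hist4h4 lay just outside the detection threshold, with 1.04 CPM in the day 6 vehicle library alone. Hist1h1b had 19, 19 and 11 pairs without and 8, 8 and 8 with GSK126 (-1.23 ± 0.35, adjusted p = 0.0436). For Hist2h2bb the values were 13, 15 and 5 pairs without and 5, 5 and 2 with it (-1.66 ± 0.46, adjusted p = 0.0423).

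On day 1 no histone gene passed for GSK126, and none of the 12056 genes did (0.0% called by edgeR, although 755 genes had an unadjusted p under 0.05, and DESeq2 called 6, none of them a histone gene). Hist3h2a had 3.04, 2.90 and 2.67 CPM without GSK126 and 3.74, 4.03 and 3.73 with it. The groups did not overlap, and the log2 fold change was 0.39 ± 0.09 with an adjusted p of 0.789; in the fit on the day 1 libraries alone it passed (adjusted p = 0.0335). That fit called 17.5% of its 11578 genes and 1 of 6 histone genes tested, a share near that background. Hist2h2be did not overlap either, at 1.85 to 2.06 CPM without and 2.17 to 2.93 with GSK126 (0.34 ± 0.13, adjusted p = 0.789). Hist1h1c showed -0.04 ± 0.09 (adjusted p = 0.967).

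BMP2 on day 6, with both doses averaged and set against no BMP2, raised Hist1h1c and no other tested histone gene, where 13.3% of all genes were called higher and 15.5% lower (6.69% and 28.3% with library size scaling, and 8.79% in either direction in the fit of day 6 alone). The count of 1 of 7 tested histone genes is near the share of all genes called higher. Without GSK126 the Hist1h1c level was 8.34, 11.1 and 16.7 CPM at 0, 10 and 50 ng/ml, and in the GSK126 libraries 11.5, 19.9 and 29.6. Both series go up at each dose. The log2 fold change was 1.04 ± 0.09 (adjusted p = 5.18e-04), with 4 of 4 matched comparisons higher. Hist2h3c1 was higher in 3 of 4 (0.82 ± 0.31, adjusted p = 0.0884), and so was Hist1h2bc (0.58 ± 0.22, adjusted p = 0.0890), both short of the threshold. Hist2h3c1 reached 1 CPM only in day 6 libraries with BMP2, so it was tested because of the group in which it was high. The Hist1h2bc call depended on single libraries: leaving out day 6 GSK126 alone gave an adjusted p of 0.0192 (log2 fold change 0.98), and leaving out day 6 GSK126 with 50 ng/ml BMP2 gave 0.0290.

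For BMP2 on day 1, 3.66% of all genes were called and no histone gene was (none of the 7 had an unadjusted p under 0.05). The fit of day 1 alone called 40.6% of its genes and none of the 6 histone genes in it. Hist1h1c showed 0.02 ± 0.09 (adjusted p = 0.939), and Hist2h3c1 -0.75 ± 0.34 (adjusted p = 0.282), lower in 3 of 4 matched comparisons.

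**Figure D5:**
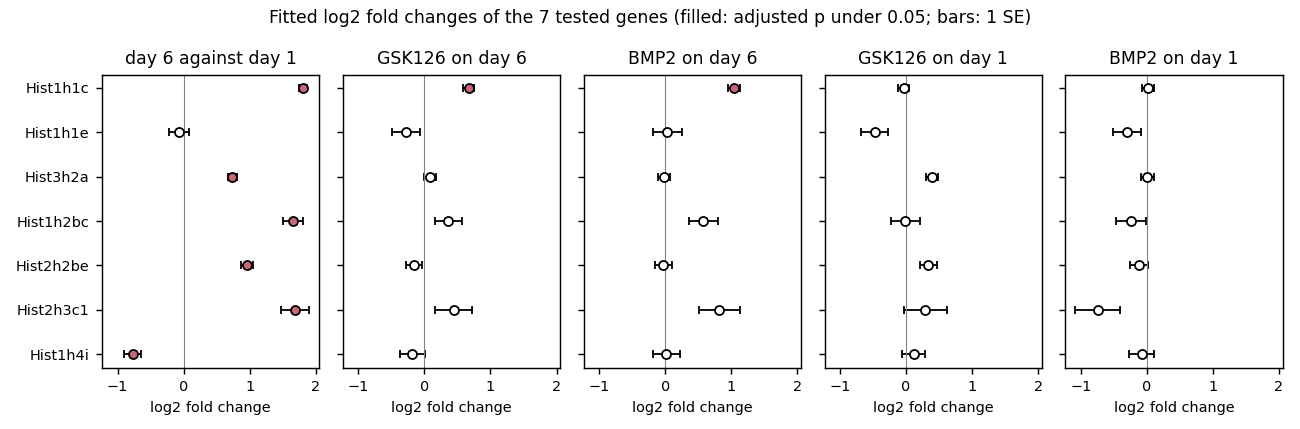
Fitted log2 fold changes (horizontal) of the 7 tested histone genes, with 1 SE, for the day, for GSK126 and for BMP2 on each day. Filled points have an adjusted p under 0.05: 6 for the day and Hist1h1c alone for GSK126 and for BMP2 on day 6.

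The difference between days was tested for both agents. The GSK126 effect on Hist1h1c was larger on day 6 than on day 1 by 0.71 ± 0.12 on the log2 scale (adjusted p = 0.0145), where 3.94% of all genes were called higher and 6.52% lower. This call was lost without any 1 of 5 libraries. Without the day 1 libraries of vehicle, GSK126 alone, 50 ng/ml BMP2 and 50 ng/ml BMP2 with GSK126 the adjusted p was 0.0820, 0.0817, 0.0803 and 0.0811, and it was 0.0502 on leaving out day 6 GSK126 with 10 ng/ml BMP2. In these 5 fits the log2 difference was 0.63 to 0.68. The BMP2 effect on Hist1h1c was larger on day 6 by 1.02 ± 0.13 (adjusted p = 0.00593), against 3.82% of all genes in that direction (2.22% with library size scaling, which called 6.44% lower). It was lost without the day 1 vehicle library (adjusted p = 0.0773) and without the day 1 library of GSK126 alone (0.0622), while the log2 difference was 0.98 and 1.07. Over all genes, calls for this comparison went from 1102 to 104 and 118 in these 2 fits. Hist2h3c1 had the larger difference, 1.56 ± 0.46, and did not pass (adjusted p = 0.0817). That gene entered the tests only through day 6 libraries with BMP2.

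Whether GSK126 acted differently with BMP2 than without it on day 6 was tested as an interaction. No histone gene passed and none of all genes did (0.0% called by edgeR, with 1125 unadjusted p-values under 0.05 over all genes and none among the 7, while DESeq2 called 190 genes and no histone gene). For Hist1h1c the interaction was 0.24 ± 0.52 on the log2 scale (adjusted p = 0.913). The interaction fit has no term for the BMP2 dose, so a difference between 10 and 50 ng/ml counts as spread in it. A p that misses the threshold does not show that the effects are alike. Leaving out the day 6 library of 10 ng/ml BMP2, edgeR called 156 of all genes, and 15 or 13 on leaving out day 6 BMP2 at 50 ng/ml or day 6 GSK126 with 10 ng/ml BMP2.

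The other genes of the pathway were read from lists. Of all 12056 genes tested, 37.5% were called lower and 40.5% higher by day 6. On day 6, 14.0% were called lower with GSK126 and 15.5% lower with BMP2. All 26 S phase genes, which license and copy DNA, were tested and fell from day 1 to day 6 (median log2 fold change -1.81), with Rrm2, a ribonucleotide reductase subunit, at -2.90 ± 0.04 and Cdc6, which loads the replicative helicase, at -2.62 ± 0.09. Their summed level was 3146 to 3507 CPM on day 1 and 587 to 1176 on day 6. With GSK126 on day 6, 23 of 26 fell (median -0.52), and with BMP2 on day 6, 14 of 26 fell (median -0.27). The last count was 6 on leaving out the day 6 vehicle library and 7 on leaving out day 6 GSK126 with 10 ng/ml BMP2, and in the fit of day 6 alone the counts were 12 for GSK126 and 2 for BMP2. The fit of day 6 alone called 8.1% of all its genes for GSK126 and 8.79% for BMP2, in either direction. Its count of 2 of 26 for BMP2 is near that share. In the main fit Ccna2, the S phase cyclin, fell most with either agent on day 6. The log2 fold change of Ccna2 was -1.07 with GSK126 and -0.68 with BMP2 (SE 0.04 each). Hist1h1c thus rose in these 3 comparisons while the S phase genes called in them fell, and how the cell cycle bears on the histone values was not tested.

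The processing machinery changed by smaller amounts. Of 15 genes for histone mRNA processing and turnover 14 were tested, and 10 fell and 2 rose by day 6 (median -0.35). Of all genes, 37.5% fell and 40.5% rose by day 6. Slbp, which binds the stem-loops shown above, had 71.0 to 87.2 CPM on day 1 and 24.1 to 51.0 on day 6 (-0.99 ± 0.03, adjusted p = 3.11e-07). It fell further with GSK126 on day 6 (-0.43 ± 0.04) and with BMP2 on day 6 (-0.34 ± 0.05, adjusted p = 0.00250; in the fit of day 6 alone, adjusted p = 0.0515). Casp8ap2, a factor of the histone locus bodies where these genes are transcribed, fell by 0.84 and Eri1, an exonuclease that trims the stem-loop, by 0.68 on the log2 scale by day 6. With GSK126 on day 6, 3 of the 14 fell and none rose, against 14.0% of all genes called lower and 14.3% higher. A count of 3 of 14 is not far from the share of all genes called lower.

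All 17 histone chaperone and chromatin assembly genes were tested: 12 fell and 2 rose by day 6 (median -0.49), against 37.5% and 40.5% of all genes. Asf1b, which carries new H3 and H4, fell by 2.44, and Chaf1b, a subunit of the assembly factor CAF-1, by 2.21 on the log2 scale. GSK126 on day 6 lowered 7 of 17 (4 in the fit of day 6 alone), led by Tonsl (-0.92 ± 0.06), and raised none. Of all genes, 14.0% were called lower with GSK126 on day 6. The fit of day 6 alone called 8.1% in either direction.

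Replacement and variant histone genes outside the clusters, most of which carry introns and make polyadenylated mRNA, were present at far higher levels. Summed over 11 genes they had 1420 to 1601 CPM on day 1 and 836 to 1196 on day 6. Of 10 tested, 7 fell and 2 rose by day 6 (median -0.57), against 37.5% and 40.5% of all genes. The centromeric H3 variant Cenpa was at -1.96 ± 0.04, H1fx at -1.45 ± 0.09 and H2afx, the variant phosphorylated at DNA breaks, at -1.28 ± 0.06. With GSK126 on day 6, Cenpa fell by 1.09 on the log2 scale (SE 0.05).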

How the data were processed

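RNA-seq counts and RPKM values of 12 libraries were taken from the table the authors deposited, in which each column carries a library's label. The genome build (mm10) and the software (HTSeq, TopHat2 2.0.6, bcl2fastq) are as listed per the submitters' processing notes. Counting settings, strandedness and annotation were not given in the sources used here, so reads of overlapping, antisense or near-identical genes could not be told apart. The deposited RPKM (scaled by gene length and by library totals of the authors, which were 1.23 to 1.30 times the gene sums) was used only to compare levels between genes, and the deposited counts for all tests.

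The 12056 genes that reached 1 CPM in 2 or more libraries were normalised by TMM and tested with edgeR 4.0.16 (R 4.3.3) quasi-likelihood tests, Benjamini-Hochberg over all genes, threshold 0.05. The additive fit had 8 coefficients: day, GSK126 within day and each BMP2 dose within day. The interaction fit had day by GSK126 by any BMP2. For edgeR, the SE shown is the size of the log2 fold change divided by the square root of the F statistic of the test. Alternatives were DESeq2 1.42.0, library size scaling, no filter, each day alone, leaving out each library and, chosen after the data were seen, halved counts and, for the day, a block by treatment. The scripts were tested on simulated data. Intervals are exact and cover counting error only.

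Named genes were the 3 histone genes of highest mean RPKM in each type, up to 8 called rises and falls per comparison, and up to 4 called genes per other list. Hist4h4, Hist2h2bb, Hist1h2bg, Hist1h2be, Hist1h4b and Hist1h1t were named after their values were seen. The members and lists were chosen with earlier results of these data known. Supt16 was found as Supt16h. Symbols and promoters were matched through RefSeq (61 of 68 members); protein sequences were not used here.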

Additional observations from a re-analysis of the deposited data

Results flagged for a closer look

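The effect of GSK126 on Hist1h1c, the cluster H1 gene of the highest level, differed between the days by 0.71 on the log2 scale (day 6 minus day 1), and that of BMP2 differed by 1.02. Each was singled out by the test of the difference itself in edgeR, with adjusted p-values of 0.0145 and 0.00593. Both calls were lost on leaving out the day 1 vehicle library (adjusted p = 0.0820 and 0.0773) or the day 1 library of GSK126 alone (0.0817 and 0.0622). The differences were then 0.68 and 0.98 without the former, and 0.68 and 1.07 without the latter. The first was also lost without day 1 BMP2 at 50 ng/ml, alone (0.0803) or with GSK126 (0.0811), and without day 6 GSK126 with 10 ng/ml BMP2 (0.0502). No condition has the 4 samples or more among which an outlying sample is looked for here.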

How the results depend on the processing

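The day comparison gave 6 called histone genes in every setting that kept the filter, and 16 without the filter, with halved counts too (the same 16). For GSK126 on day 6 the count was 1, and 4 without the filter, with or without halving. Leaving out single libraries gave 6 to 6 for the day, 1 to 1 for GSK126 on day 6, 1 to 2 for BMP2 on day 6, 0 to 1 for the GSK126 difference between days and 0 to 2 for the BMP2 difference. It gave 0 to 0 for either agent on day 1 and for the interaction, which could not be fitted without 4 of the libraries. DESeq2 called 2 for the BMP2 difference, Hist2h3c1 with Hist1h1c (adjusted p = 0.0401), and the fit on that day alone called 1 for GSK126 on day 1, where it called 17.5% of all genes. Hist2h3c1 reached 1 CPM only in day 6 libraries with BMP2, so it was tested because it was high there. The detected share was 89.7% with any count, 41.2% at 0.1 CPM and 4.41% at 5 CPM. The summed ratio was 1.29 without Hist1h1c. Some values turned in sign. Leaving out libraries, Hist1h1e ran from -0.183 to 0.027 for the day, and Hist1h1c from -0.120 to 0.0154 for GSK126 on day 1, from -0.0453 to 0.0785 for BMP2 on day 1 and from -0.121 to 0.693 for the interaction. Library size scaling gave Hist1h1c -0.026 for BMP2 on day 1 and Cpsf2 -0.0004 for BMP2 on day 6, and moved the median of all genes by -0.21 for the day, -0.145 for BMP2 on day 6, -0.10 for the BMP2 difference and 0.11 for the interaction. The cause of these changes was not tested. No paired analysis was possible because the labels carry no replicate numbers, as far as pairing by number goes. Matching by treatment was possible: BMP2 dose is in the main fit, and a block by treatment left 6 histone genes called for the day. Over all genes, the 3415 calls for GSK126 on day 6 ran from 1825 (without day 6 GSK126 with 10 ng/ml BMP2) to 4252 (without day 6 BMP2 at 50 ng/ml). Leaving out libraries was not run in the fit without the filter. With 1 library a condition, low genes rest on few read pairs, and a p over the threshold is no sign of equal levels.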
